A study of Mus musculus with 8 samples.

Results

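The genes described here are those of the mouse major histocompatibility complex (MHC), whose symbols start with H2-, together with Cd74, Ciita, B2m and Nlrc5. Every open-chromatin peak whose nearest start site, as annotated in the deposited table, belonged to one of them was taken, which gave 145 of 104981 peaks and 43 of 18207 genes. By symbol, 28 genes with 60 peaks were class I, and their partners B2m and Nlrc5 had 11 peaks. Another 10 genes with 53 peaks were class II, and their partners Cd74 and Ciita had 19 peaks. The remaining symbol, H2-Ke6, had 2 peaks and encodes no MHC chain. The 115 peaks of H2- symbols lay on chromosome 17, and positions are printed as the deposited table gives them, in mm10. The peaks divided into 29 annotated promoter-TSS and 116 elsewhere, called distal below. Assignment to a gene was by distance to the nearest start site, which does not show that a peak regulates that gene.

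Chromatin was profiled by ATAC-seq, in which a transposase cuts and tags open DNA, in cortical microglia collected by flow sorting from mice at postnatal day 30. One group of 4 mice had received interleukin-33 (IL-33), an alarmin cytokine related to interleukin-1, into the ventricle of one side of the brain, and the other 4 mice had received vehicle. Both groups were taken 4 hours after the injection, and each held 2 female and 2 male mice. The strain was not stated in the labels. Libraries held 35842688 to 43857673 tags, and every level below is in tags per 10000000 of its library. Between 20.8% and 27.9% of tags fell in peaks in vehicle libraries and between 14.2% and 31.3% in IL-33 libraries, and the means did not differ beyond the spread (two-sided exact permutation p = 0.857, smallest possible 0.0286, n = 4 per group). IL-33 library 2, with the share of 14.2%, was the lowest of its group at 110 of the 145 peaks, and vehicle library 3, with 20.8%, at 88 of 145. Promoters of 7 of 8 microglial marker genes were in the table, with summed levels of 467 to 666 tags in vehicle and 280 to 600 tags in IL-33 libraries. Of cell types that carry class II, 2 of 5 dendritic cell markers had promoter peaks, Zbtb46 and Itgax, and these summed to 102 to 135 tags in vehicle and 90.9 to 177 tags in IL-33 libraries. The B cell marker Cd79b had a promoter peak at 5.59 to 11.6 and 7.78 to 23.3 tags, while Cd79a, Ms4a1 and Pax5 had none. For macrophages of the brain's borders 2 of 4 had one, Mrc1 and Pf4, with sums of 44.1 to 74.1 and 28.4 to 73.8 tags. By limma, no tested marker promoter of another cell type passed, and 1 microglial one, Siglech, was lowered. The promoters of Cd2, S100a8, Gja1, Slc1a3 and Flt1, markers of further cell types, were not tested. They lay under the filter on low promoter sums, which kept means from 10.7 tags. The part of other cell types in the results was not tested. In such bulk samples, fewer cells of one type and less signal per cell cannot be told apart.

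MHC class I molecules sit on nearly all nucleated cells and present peptides from inside the cell to CD8 T cells, with beta-2 microglobulin (B2m) as their light chain and NLRC5 as their transcriptional coactivator. Class II molecules belong to professional antigen-presenting cells and present peptides from the endosome to CD4 T cells. The invariant chain CD74 guides them there, the DM and DO proteins edit peptide loading, and CIITA switches on their genes from promoters that share an S-X-Y module. Microglia at rest carry little class II and raise it in inflammation and disease.

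Promoter sequences of RefSeq (GRCm38.p6), each reaching from 250 bases before to 50 bases after a start site, were found for 29 of the 43 genes, in 31 windows. Those shown are classical chains of both classes and the shared light chain, whose promoters the comparisons below turn on, and the last 200 bases before the start are printed 5′ to 3′ on the gene's strand. The stretches are chr17:34287824-34288023 (minus strand), chr17:34305667-34305866 (plus), chr17:34000334-34000533 (minus), chr17:35262894-35263093 (plus) and chr2:122147487-122147686 (plus). Capitals mark CCAAT or its reverse complement ATTGG (the Y box letters bound by NF-Y), AACNGATG (core letters of an X box), TGACGTCA (a cyclic AMP response element), GGGATTCCC (a kappaB site) and GAAANNGAA (core letters of an interferon response element).
H2-Aa: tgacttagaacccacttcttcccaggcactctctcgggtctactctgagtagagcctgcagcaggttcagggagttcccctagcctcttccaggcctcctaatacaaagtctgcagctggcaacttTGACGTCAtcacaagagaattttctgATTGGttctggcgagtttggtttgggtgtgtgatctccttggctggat
H2-Eb1: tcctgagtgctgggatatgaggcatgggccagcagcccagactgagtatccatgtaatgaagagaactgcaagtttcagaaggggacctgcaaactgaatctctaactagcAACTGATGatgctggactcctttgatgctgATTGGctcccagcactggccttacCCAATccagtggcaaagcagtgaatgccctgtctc
H2-K1: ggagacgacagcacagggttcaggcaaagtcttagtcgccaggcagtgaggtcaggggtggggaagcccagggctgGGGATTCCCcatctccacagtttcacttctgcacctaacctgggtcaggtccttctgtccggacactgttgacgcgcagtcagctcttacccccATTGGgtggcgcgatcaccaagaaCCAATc
H2-D1: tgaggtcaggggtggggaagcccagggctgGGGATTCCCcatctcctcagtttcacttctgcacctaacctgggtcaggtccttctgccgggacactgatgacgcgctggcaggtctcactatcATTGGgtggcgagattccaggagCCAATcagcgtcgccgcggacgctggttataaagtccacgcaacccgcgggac
B2m: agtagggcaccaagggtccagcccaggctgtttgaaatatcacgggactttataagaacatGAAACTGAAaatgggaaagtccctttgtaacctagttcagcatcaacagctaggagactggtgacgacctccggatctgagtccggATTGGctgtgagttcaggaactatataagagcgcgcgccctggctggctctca

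The motifs were chosen from textbook knowledge of MHC promoters and were searched on both strands in the whole windows. In class II windows CCAAT was found in 8 of 9 and in class I windows, B2m included, in 18 of 21, against 37.4% of all 32851 promoter windows. The X core was in 4 of 9 class II windows, those of H2-DMb1, H2-DMb2, H2-Eb1 and H2-Eb2, and in 1 of 21 class I windows, against 2.32% of all. In these 4 class II windows an ATTGG began 30 bases (H2-Eb1, H2-Eb2) or 31 bases (H2-DMb1, H2-DMb2) after the start of the X core. The H2-Aa window had no X core in these letters and held TGACGTCA, found in 1.79% of all windows, 74 bases before the start. GGGATTCCC was in 5 of 21 class I windows, those of H2-K1 (2 windows), H2-D1, H2-Q6 and H2-Q7, in no class II window, and in 0.353% of all. GAAANNGAA was in 3 of 21 class I windows, those of B2m, H2-T23 and H2-T22, in no class II window, and in 8.56% of all. Other spellings of an interferon response element were not searched. Windows without these letters, those of H2-K1 and H2-D1 among them, may therefore still hold one. Many class I genes of the K, D, Q and T groups are near copies of each other. How reads that map to several places were treated was not given in the sources used here, so levels of single class I genes are uncertain.

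At class II genes and their partners, 8 of 66 tested peaks rose in IL-33 mice and 2 fell, and at class I genes and their partners 1 of 64 rose and none fell. The raised peaks belonged to Cd74, Ciita, H2-Eb1, H2-Ea-ps, H2-Ab1 and B2m, and the lowered ones to H2-Ob. Only 1 of the 9 raised peaks was a promoter peak, that of Cd74. Over all members 9 of 132 tested peaks rose, which is 6.82% against 8.53% of all 94480 peaks tested, and 2 fell, which is 1.52% against 4.99% (limma on log2(tags + 1.155), two-sided, Benjamini-Hochberg adjusted p under 0.05). A filter on the lowest 10% of mean levels, which kept peaks from 4.30 tags, left out 13 member peaks. Of the 9 raised peaks 5 had a vehicle mean under 4.30 tags and passed the filter through their IL-33 level, as 1 of the 2 lowered peaks did through its vehicle level, so these had to differ to be tested at all. All IL-33 libraries lay above all vehicle libraries at 9 tested members, against 8.06% of all peaks, and below them at 3, against 5.89%. Neither share of changed members, both classes together, exceeded that of all peaks, and the median change was -0.11 (log2) over members and -0.14 over all peaks. By class, with partners, 12.1% of tested class II peaks rose and 3.03% fell. Of tested class I peaks 1.56% rose, against the same 8.53% and 4.99% of all peaks. The difference between the classes was not tested.

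**Figure D1:**
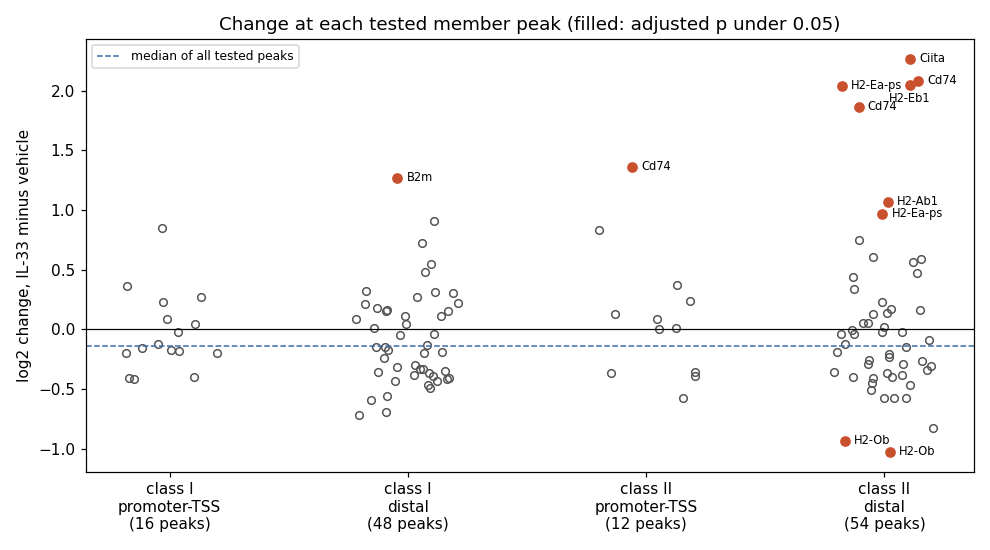
Change at each tested peak of the MHC genes, as log2 of IL-33 minus vehicle, for class I (with B2m and Nlrc5) and class II (with Cd74 and Ciita), promoter-TSS and distal peaks apart. Filled points passed the adjusted p of 0.05 in limma and carry the gene's symbol, and 8 of the 9 raised points are in the class II columns.

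The invariant chain gene Cd74 had 10 peaks, and 3 of them rose. Its promoter peak, 194 bp upstream of the start site (chr18:60803517-60803794), read 14.1, 17.04, 14.6 and 14.7 tags in vehicle libraries 1 to 4 and 51.8, 32.1, 35.8 and 44.9 tags in IL-33 libraries 1 to 4. All IL-33 libraries were above all vehicle libraries, with means of 15.1 ± 1.33 and 41.1 ± 8.90 tags (SD, n = 4 each), a 2.73-fold difference (log2 change 1.36, SE 0.34, limma adjusted p = 0.00101). An intergenic peak 1835 bp upstream, at chr18:60801875-60802154, overlaps an LTR repeat and read 1.28, 0.26, 0.46 and 2.09 tags in vehicle and 8.92, 6.13, 7.64 and 7.73 tags in IL-33 libraries (log2 change 2.08, limma adjusted p = 4.64e-08). It was close to the detection limit in vehicle mice, where 3 reads are worth 0.342 to 0.418 tags, and 1 vehicle library fell below that floor. An intronic peak 527 bp downstream rose from 2.05 ± 0.694 to 10.4 ± 2.08 tags (n = 4 each; log2 change 1.86, limma adjusted p = 1.54e-06). Both flanking peaks had been called by the authors in the IL-33 list alone. The other 7 Cd74 peaks did not pass the test, and the strongest of all, 3.6 kb downstream, overlapped between the groups in the plot of class II loci. The sum over all 10 peaks, most of it from peaks that did not pass, was 244 ± 37.9 in vehicle and 270 ± 74.9 in IL-33 mice.

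The class II coactivator gene Ciita had 9 peaks, of which an intronic one 8.5 kb downstream rose (chr16:10498163-10498449). It read 1.54, 1.06, 0.68 and 0.28 tags in vehicle and 8.29, 7.43, 7.26 and 11.3 tags in IL-33 libraries. The IL-33 libraries were all above the vehicle libraries, by 9.62-fold in the means (0.890 ± 0.538 and 8.56 ± 1.87, SD, n = 4 each; log2 change 2.27, SE 0.34, limma adjusted p = 1.56e-09). Vehicle library 4 was below its floor of 3 reads there, and over the 15 alternatives in which the peak was tested the log2 change ran from 1.2 to 3.39. This was the largest change among the 132 tested members as deposited. Ciita is transcribed from several promoters, and its 2 promoter-TSS peaks lay 9.23 kb apart. The upstream one, chr16:10479884-10480202, read 7.42, 10.2, 7.30 and 12.3 tags in vehicle and 12.5, 6.48, 10.6 and 24.1 tags in IL-33 libraries, so the groups overlapped (limma adjusted p = 0.586). The downstream one, chr16:10489100-10489449, read 3.45, 2.11, 2.85 and 3.91 tags in vehicle and 8.67, 5.42, 3.06 and 9.89 tags in IL-33 libraries, with 3 of 4 IL-33 libraries above all vehicle libraries (log2 change 0.83, limma adjusted p = 0.0890). A weak peak 9.6 kb downstream, left out by the filter, had the opposite order, at 5.62 ± 0.757 tags in vehicle and 2.04 ± 0.514 tags in IL-33 mice, with no overlap.

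**Figure D2:**
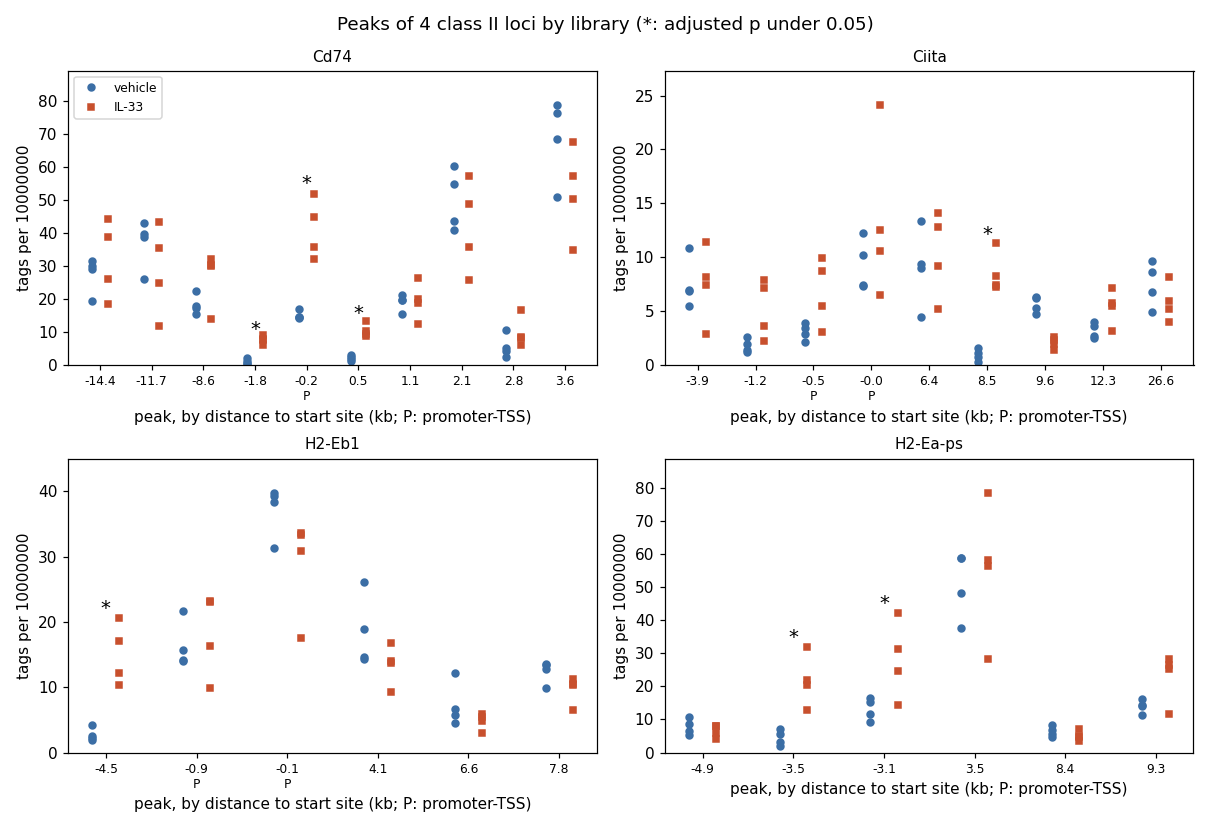
Tags per 10000000 in each of the 4 vehicle (circles) and 4 IL-33 (squares) libraries at every peak of Cd74, Ciita, H2-Eb1 and H2-Ea-ps, ordered by distance to the start site in kb, with P for promoter-TSS and an asterisk for an adjusted p under 0.05 in limma. Of these 4 loci only Cd74 has an asterisk at a promoter, and the asterisks of the other 3 stand at distal peaks.

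Among the classical class II chains, the rises were upstream of the genes and not at their promoters. H2-Eb1, the beta chain of I-E, had an intergenic peak 4542 bp upstream (chr17:34301161-34301490) at 2.30, 1.85, 4.22 and 2.51 tags in vehicle and 20.5, 10.4, 12.1 and 17.1 tags in IL-33 libraries. Every IL-33 library was above every vehicle library there, with means 5.52-fold apart (log2 change 2.05, SE 0.34, limma adjusted p = 7.15e-08). At the H2-Eb1 promoter, whose sequence is given above, the peak at 50 bp upstream read 39.8, 38.3, 31.4 and 39.3 tags in vehicle and 30.9, 17.6, 33.3 and 33.6 tags in IL-33 libraries. Those groups overlapped and the peak did not pass the test (log2 change -0.39, limma adjusted p = 0.558), nor did the second promoter peak at 907 bp upstream (16.4 ± 3.59 and 18.1 ± 6.36 tags, log2 change 0.09, limma adjusted p = 0.907).

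H2-Ea-ps is the symbol under which the table lists the alpha chain gene of I-E, which some mouse strains carry as a non-expressed form, and it had 6 distal peaks and no promoter-TSS peak. The intergenic peak 3493 bp upstream of its start (chr17:34348013-34348264) read 2.05, 5.55, 3.31 and 7.25 tags in vehicle and 32.0, 12.9, 21.8 and 20.5 tags in IL-33 libraries, without overlap and 4.80-fold apart (log2 change 2.04, limma adjusted p = 8.61e-08). Its neighbour 3127 bp upstream (chr17:34347614-34347930) rose from 13.2 ± 3.32 to 28.1 ± 11.7 tags (n = 4 each; log2 change 0.97, limma adjusted p = 0.0350). At this neighbour IL-33 library 2, with 14.3 tags, lay within the vehicle range of 9.23 to 16.5 tags. The call at the neighbour was lost when any library but IL-33 library 2 was left out, with log2 changes of 0.75 to 1.24 and adjusted p up to 0.187 over 17 alternatives.

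H2-Ab1, the beta chain of I-A, had a raised intergenic peak 1518 bp upstream (chr17:34261553-34261866). It read 18.8, 22.9, 13.9 and 23.4 tags in vehicle and 51.1, 25.9, 42.8 and 53.9 tags in IL-33 libraries, which did not overlap (log2 change 1.07, limma adjusted p = 0.0158). The call was lost without vehicle library 1 or 3 or IL-33 library 1 or 3, with adjusted p up to 0.0966. The H2-Ab1 promoter peak read 35.6, 44.8, 27.02 and 40.5 tags in vehicle and 38.1, 17.2, 32.6 and 28.5 tags in IL-33 libraries, with overlap (log2 change -0.36, limma adjusted p = 0.597). H2-Aa, the alpha chain of I-A, had promoter levels of 28.1, 35.1, 28.6 and 37.9 tags in vehicle and 39.6, 19.3, 33.5 and 41.5 tags in IL-33 libraries, the log2 change being -0.00 (limma adjusted p = 0.999). Its most changed distal peak, 8472 bp upstream, had 19.5 ± 3.86 and 28.0 ± 10.7 tags (log2 change 0.44, limma adjusted p = 0.496), and it rose when libraries were scaled by the median ratio of their peaks, called median-ratio scaling below (log2 change 0.53, limma adjusted p = 0.0159).

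The 2 lowered peaks belonged to H2-Ob, the beta chain of the DO protein that restrains DM. An intronic peak 533 bp downstream of its start (chr17:34239300-34239576) read 11.5, 8.85, 6.73 and 11.02 tags in vehicle and 4.97, 4.6, 3.57 and 3.04 tags in IL-33 libraries. All IL-33 libraries were below all vehicle libraries (log2 change -1.03, SE 0.34, limma adjusted p = 0.0213). An intergenic peak 10039 bp downstream (chr17:34248794-34249094) read 33.1, 33.8, 19.3 and 39.2 tags in vehicle and 20.9, 8.61, 13.6 and 21.7 tags in IL-33 libraries, and vehicle library 3 fell within the IL-33 range (log2 change -0.94, limma adjusted p = 0.0418). The first call was lost in 5 and the second in 8 of 17 alternatives, and both were lost without vehicle library 1, 2 or 4 or IL-33 library 3. A further intronic H2-Ob peak 1387 bp downstream also had all IL-33 libraries below all vehicle libraries but did not pass the test (6.85 and 4.30 tags in the means, limma adjusted p = 0.308).

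No peak of the other class II genes passed the test by limma on the values as deposited. H2-DMa, the alpha chain of DM, had its largest change at an intronic peak 2162 bp downstream, with 27.4 ± 7.14 tags in vehicle and 15.1 ± 4.86 tags in IL-33 mice (log2 change -0.83, limma adjusted p = 0.0875), which fell after median-ratio scaling (log2 change -0.73, limma adjusted p = 0.00612). Another intronic H2-DMa peak, 849 bp downstream, had 24.8 ± 7.85 and 37.5 ± 9.38 tags (log2 change 0.59, limma adjusted p = 0.293) and rose under that scaling (log2 change 0.69, limma adjusted p = 0.0148). The H2-DMa promoter peak read 27.8, 39.4, 28.3 and 20.5 tags in vehicle and 29.96, 25.1, 32.1 and 37.8 tags in IL-33 libraries. H2-Oa, the alpha chain of DO, had a weak promoter of 7.16, 6.08, 4.90 and 4.32 tags in vehicle and 7.14, 7.43, 7.52 and 5.07 tags in IL-33 libraries. At H2-DMb2, the 5 peaks were distal, and the one 3746 bp upstream had every IL-33 library below every vehicle library (21.1 ± 2.67 and 13.7 ± 2.25 tags, log2 change -0.58, limma adjusted p = 0.302). H2-DMb1, a beta chain of DM, had a promoter peak of 36.3, 45.6, 24.97 and 38.4 tags in vehicle and 33.1, 11.4, 26.1 and 29.8 tags in IL-33 libraries, with overlap (log2 change -0.58, limma adjusted p = 0.308). H2-Eb2 was weak, with 11.8 ± 2.54 and 13.2 ± 7.04 tags at its promoter and 1 distal peak under the filter. H2-Oa had 10 peaks with sums of 115 ± 23.8 and 116 ± 27 tags, and its weak peak 5269 bp upstream, left out by the filter, had all IL-33 libraries above all vehicle libraries (3.18 to 4.97 against 0.51 to 2.62 tags).

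By limma on the values as deposited, none of the 16 class I promoter peaks, B2m included, was called in either direction, while after median-ratio scaling those of H2-D1 (log2 change 0.38, limma adjusted p = 0.0489) and H2-M10.2 (0.94, limma adjusted p = 0.00385) rose. In vehicle mice their median level was 22.2 tags per 100 bp of peak, with a range of 1.36 to 38.1, and that of the 12 class II promoter peaks, partners included, was 5.83 tags per 100 bp, with a range of 0.883 to 17.1. H2-K1, a classical heavy chain, had promoter levels of 77.4, 99.0, 68.8 and 99.7 tags in vehicle and 91.7, 55.5, 70.4 and 92.2 tags in IL-33 libraries, with overlap (log2 change -0.16, limma adjusted p = 0.824). H2-D1, the other classical chain shown above, had 79.8, 99.9, 60.5 and 88.6 tags in vehicle and 118, 62.8, 98.6 and 126 tags in IL-33 libraries. The H2-D1 groups overlapped too, since IL-33 library 2 lay low (log2 change 0.27, limma adjusted p = 0.707). Distal peaks of both genes did not pass the test, the most changed being 712 bp downstream of H2-K1 (10.4 ± 2.55 and 7.13 ± 1.26 tags) and 4727 bp upstream of H2-D1 (28.5 ± 9.39 and 18.7 ± 4.51 tags).

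Among non-classical class I genes, the H2-Q4 promoter read 96.5, 107, 77.3 and 107 tags in vehicle and 105, 62.5, 103 and 118 tags in IL-33 libraries, with means of 96.9 ± 14.0 and 97.3 ± 24.1. H2-M3, which presents formylated peptides, read 84.9, 87.5, 73.9 and 92.5 tags in vehicle and 104, 43.4, 62.9 and 107 tags in IL-33 libraries, the IL-33 spread enclosing all vehicle values. H2-T23, the gene of Qa-1, read 45.9, 67.4, 34.1 and 51.8 tags in vehicle and 56.5, 19.9, 36.8 and 41.3 tags in IL-33 libraries (log2 change -0.40, limma adjusted p = 0.541). Promoter sums of heavy chain genes in vehicle mice ran from 6.68 ± 1.31 tags at H2-M10.2, a gene known from the vomeronasal organ, to 110 ± 20.6 tags at H2-T24. H2-M10.2 had 13.6 ± 5.04 tags in IL-33 mice (log2 change 0.85, limma adjusted p = 0.0747), the largest log2 change among the class I promoters tested as deposited. At the most changed distal peaks, with log2 changes of -0.43 for H2-Q4, -0.24 for H2-M3 and -0.36 for H2-T23, none passed the test.

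The remaining class I genes had no called peak by limma on the values as deposited. After median-ratio scaling 1 of their peaks fell, 3170 bp upstream of H2-M5, which had 36.2 ± 5.44 tags in vehicle and 23.3 ± 9.92 tags in IL-33 mice as deposited (scaled log2 change -0.60, limma adjusted p = 0.0126). Of those with a promoter-TSS peak, H2-K2 had 105 ± 12 and 93.4 ± 24.4 tags there, H2-T22 84.8 ± 14.1 and 65.8 ± 21.3, and H2-T24 110 ± 20.6 and 85.7 ± 32.3 (vehicle and IL-33, SD, n = 4 each). Higher in the IL-33 mean were H2-Q5 with 11.7 ± 2.12 and 15.4 ± 2.94 tags, H2-Q7 with 75.2 ± 10 and 81.7 ± 18.9 and H2-Q8 with 33.2 ± 5.95 and 39.5 ± 9.27, and the groups of each overlapped. H2-T10 and H2-T-ps differed little beside their spread, with 32.9 ± 6.22 and 30.5 ± 10.9 tags and 37.1 ± 7.48 and 36.6 ± 17.3 tags. H2-Bl, H2-L, H2-M2, H2-M5, H2-M10.1, H2-M10.4, H2-M10.5, H2-M10.6, H2-Q1, H2-Q2, H2-Q6, H2-Q9, H2-Q10 and H2-T3 had distal peaks only. Among these, H2-M5 summed to 47.3 ± 7.65 and 32.0 ± 14.6 tags (log2 change -0.57, limma adjusted p = 0.443). H2-T3 summed to 39.8 ± 8.82 and 42.5 ± 14.7 tags and H2-Bl to 30.5 ± 4.90 and 27.9 ± 8.91. H2-M2, H2-M10.1, H2-M10.2, H2-M10.4, H2-M10.5, H2-Q9 and H2-Q10 fell under the filter on sums over all peaks and were not tested there. At the single H2-M2 peak, 584 bp downstream, all IL-33 libraries lay above all vehicle libraries, at 3.30 to 7.73 against 1.67 to 3.20 tags, and this peak too was under the filter.

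By limma on the values as deposited, B2m had the only raised class I peak, 1593 bp upstream of its start (chr2:122145970-122146219), in a stretch annotated as an intron and overlapping a SINE repeat. It read 2.43, 2.25, 2.17 and 1.67 tags in vehicle and 6.50, 4.48, 8.02 and 8.62 tags in IL-33 libraries, without overlap (3.24-fold, log2 change 1.27, SE 0.34, limma adjusted p = 0.00257). Without IL-33 library 3 or 4 this peak fell under the filter and was not tested. The B2m promoter peak 82 bp upstream read 92.5, 95.5, 63.6 and 91.8 tags in vehicle and 94.97, 48.7, 73.1 and 87.7 tags in IL-33 libraries (log2 change -0.20, limma adjusted p = 0.791). The second promoter peak, 837 bp upstream, had 44.1 ± 6.52 and 48.1 ± 18.1 tags (log2 change 0.04, limma adjusted p = 0.956). Nlrc5, the class I coactivator, had 2 intronic peaks, 12743 and 13330 bp downstream, and no promoter-TSS peak in the table. The first (chr8:94485373-94485639) read 4.35, 3.43, 1.14 and 4.05 tags in vehicle and 9.31, 4.48, 7.90 and 5.83 tags in IL-33 libraries. These groups did not overlap, yet the peak missed the threshold as deposited (log2 change 0.91, limma adjusted p = 0.0527) and passed it after median-ratio scaling (log2 change 1.0, limma adjusted p = 0.0181).

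Summed over all promoter-TSS peaks of a gene, Cd74 alone of 24 tested members rose and none fell, while 0.818% of all 10886 genes rose and 0.615% fell (limma on log2(sum + 5), adjusted p under 0.05). The Cd74 sum is its single promoter peak (log2 change 1.18 on this scale, SE 0.26, limma adjusted p = 0.00134). Over distal peaks none of 33 tested members was called in either direction by limma, against 3.24% of 14404 genes raised and 2.17% lowered, with 2 members at an unadjusted p under 0.05. Over all peaks none of 36 was called, against 1.46% of 16386 genes raised and 1.23% lowered, with 1 member at an unadjusted p under 0.05. edgeR scaled to total tags also called none in these sums, and with TMM scaling it called 6 raised and 4 lowered over all peaks, against 15% and 11.5% of all genes, and 5 raised and 2 lowered over distal peaks, against 20.2% and 15.7%. The changes over all peaks lay between -0.57 and 0.46, with a median of -0.07 against -0.17 over all genes. Class II genes with called distal peaks did not pass in their sums over all peaks. H2-Ea-ps had 96.6 ± 17.2 and 140 ± 43.7 tags, H2-Ab1 101 ± 21.1 and 122 ± 29.0, Ciita 47.9 ± 8.66 and 64.9 ± 20.8, H2-Eb1 94.5 ± 11.6 and 89.9 ± 21.4 and H2-Ob 142 ± 24.5 and 98.3 ± 28.6.

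**Figure D3:**
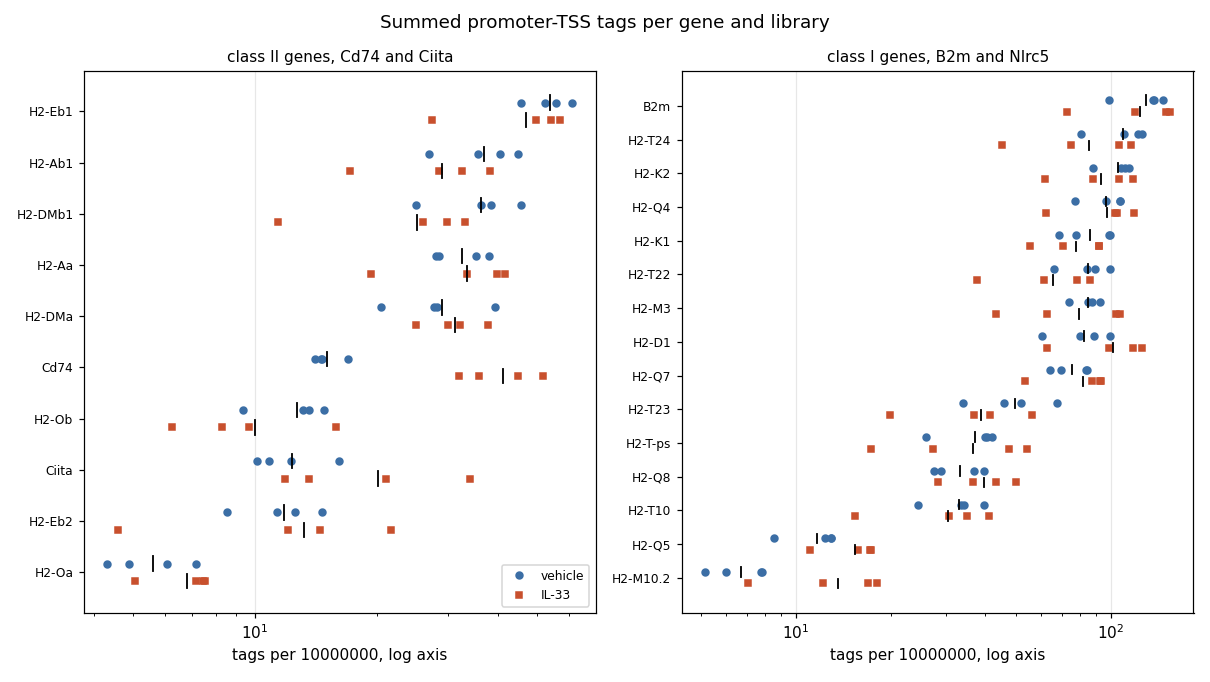
Summed promoter-TSS tags per 10000000 (log axis) for each gene in 4 vehicle (circles) and 4 IL-33 (squares) libraries, with a bar at each mean, class II with Cd74 and Ciita on the left and class I with B2m on the right. Cd74 is the one class II gene whose groups lie apart, at 14.1 to 17.04 and 32.1 to 51.8 tags.

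**Figure D4:**
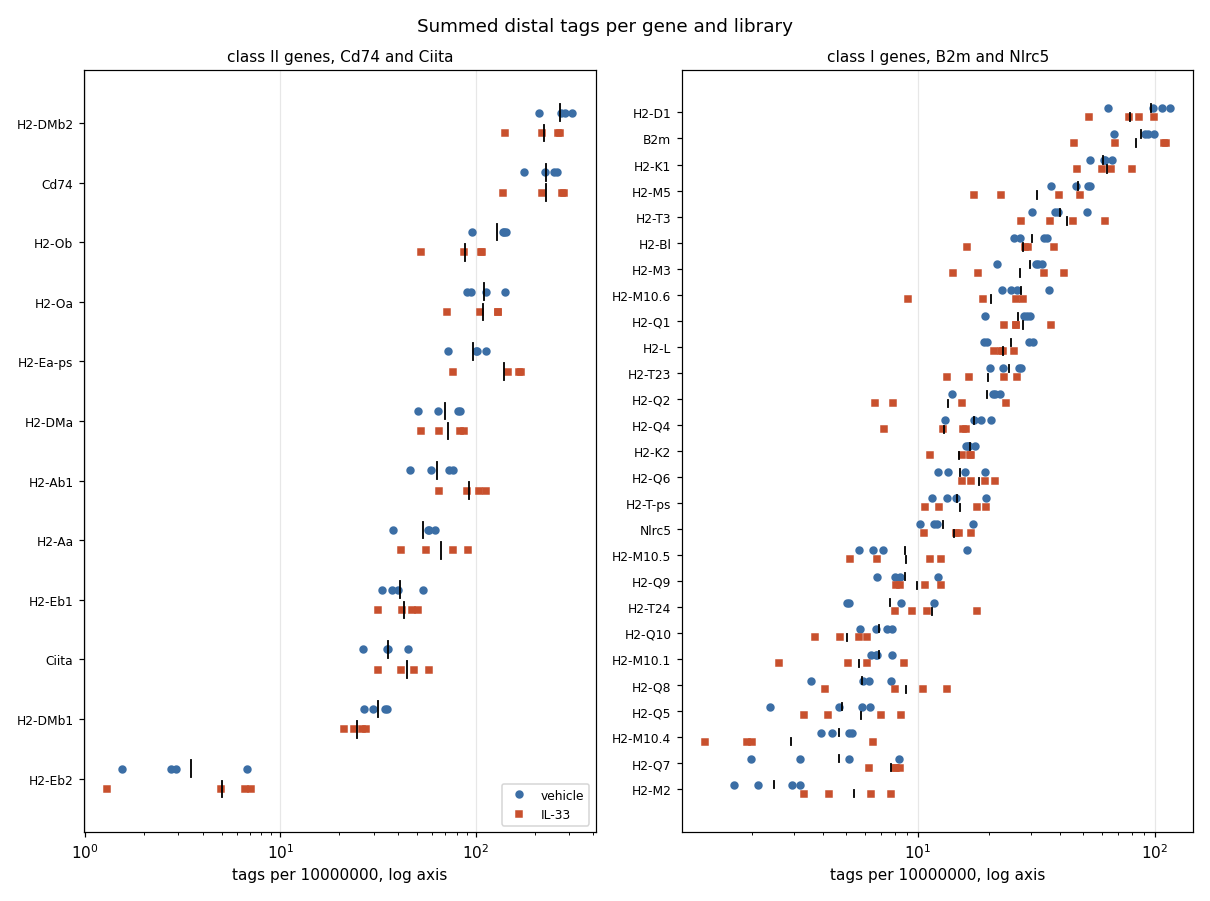
Summed distal tags per 10000000 (log axis) for each gene, drawn as for the promoters. The groups overlap for nearly all genes, and IL-33 library 2 is often the lowest square, as at H2-Ob with 52.6 tags against 86.8 to 108 tags in the other IL-33 libraries.

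More gene sums passed under another scaling of the libraries. With the libraries scaled by the median ratio of their peaks, in place of the total of all tags, the spread within groups narrowed and the SE of a promoter sum fell from 0.26 to a typical 0.09. Peaks then rose at 17 of 134 tested members and fell at 4, against 15.3% and 10.8% of all peaks. The newly raised peaks were those of H2-D1, H2-M10.2, Nlrc5, H2-Aa and H2-DMa given above, the Ciita promoter peak 507 bp upstream, a Cd74 peak 8595 bp upstream and an H2-Ea-ps peak 9310 bp downstream. Of these, the Nlrc5 and Ciita peaks had scaled vehicle means of 3.02 and 2.99 tags. The filter kept scaled means from 4.25 tags, so both had to differ to be tested. Promoter sums rose for Cd74, H2-D1, Ciita and H2-Q5 and fell for H2-T22, H2-DMb1 and H2-T24, against 3.96% and 11.8% of all genes. Sums over all peaks rose for 7 members (H2-Ea-ps, Ciita, H2-Aa, H2-Ab1, H2-Q8, H2-Q5 and Cd74) and fell for 4 (H2-Ob, H2-M5, H2-T22 and H2-DMb1), against 11.8% and 15.6%. Distal sums rose for 6, H2-Ea-ps, H2-Ab1, Ciita, H2-Aa, H2-Ke6 and H2-T24, and fell for 3, H2-Ob, H2-M5 and H2-Q2, against 18% and 15.3%. This scaling moved the median change of all gene sums from -0.17 to -0.07. Which scaling is right for these libraries was not tested.

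Sums over each class also differed among libraries. As deposited, class I peaks with their partners summed to 1683, 1852, 1341 and 1839 tags in vehicle and 1897, 1001, 1483 and 1969 tags in IL-33 libraries. Class II peaks with their partners summed to 1434, 1584, 1072 and 1427 tags in vehicle and 1665, 887, 1355 and 1674 tags in IL-33 libraries. In both classes IL-33 library 2 was the lowest of all and the groups overlapped. After median-ratio scaling the class I sums were 1606 ± 65.2 and 1593 ± 70.9 tags and the class II sums 1317 ± 58.2 and 1406 ± 96.9 tags (SD, n = 4 each).

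**Figure D5:**
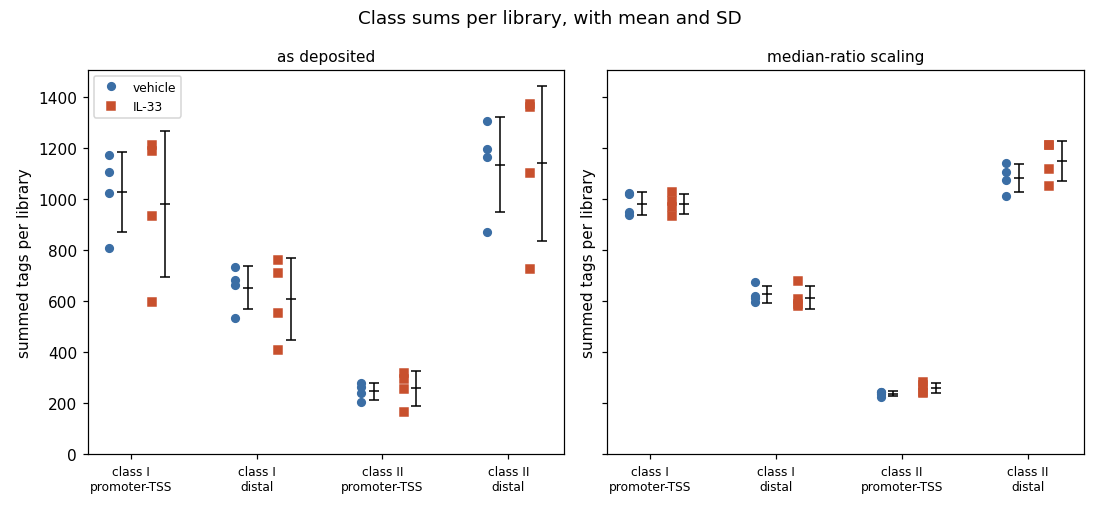
Summed tags per library over class I and class II peaks with their partners, promoter-TSS and distal apart, as deposited (left) and after median-ratio scaling (right), with the mean and SD of 4 libraries per group beside the points. The low IL-33 square on the left, at 594 tags for class I promoters, joins the others on the right.

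Genes that serve antigen presentation outside these families were taken from 2 lists, which were compiled with earlier results of these data known. Of the class II machinery (18 genes, 256 tested peaks), 30 peaks of 11 genes rose and 6 of 4 genes fell, 11.7% and 2.34% of those tested against 8.53% and 4.99% of all peaks, and the median change was -0.00. The costimulatory receptor gene Cd40 was the only one whose gene sum rose, from 21.4 ± 3.77 to 56.7 ± 13 tags (log2 change 1.21, SE 0.28, limma adjusted p = 0.00145). The largest single rises were 10.9 kb upstream of Irf8, a myeloid transcription factor (2.50 ± 1.22 and 30.3 ± 11.7 tags, log2 change 3.10), and in an intron of March1, the ubiquitin ligase that turns over class II (1.86 ± 1.0 and 17.4 ± 7.76 tags, log2 change 2.58). Both had a vehicle mean under the 4.30 tags of the filter and passed it through their IL-33 level, so they had to differ to be tested. Peaks nearest Ctss and Lgmn, proteases that cleave the invariant chain or antigen in endosomes, rose too, with log2 changes of up to 1.66 and up to 2.0. The raised Ctss peaks, with vehicle means of 3.59 and 3.01 tags, also passed the filter only through their IL-33 level, unlike those of Lgmn. The same held for raised peaks nearest Cd80, Cd86, Irf4 and Spi1 and for a further one of March1. The share of 11.7% therefore includes peaks that had to differ to be tested. Rfx5, Rfxank and Rfxap, which bind the X box, and Nfya, Nfyb and Nfyc, which bind the Y box, had no called peak by limma as deposited and summed changes of -0.40 to -0.17. Of the class I machinery (16 genes, 89 tested peaks), 8 peaks of 4 genes rose and 5 of 2 genes fell, 8.99% and 5.62% against the same 8.53% and 4.99% of all peaks. The largest rise was in an intron of Psme2, a subunit of the proteasome activator (1.67 ± 0.541 and 23.8 ± 9.47 tags, log2 change 3.09), which also passed the filter through its IL-33 level alone. So did raised peaks nearest Irf1 (vehicle mean 3.04 tags) and Irf2 (vehicle means 2.25 and 3.94 tags). The lowered peaks belonged to Irf1 and Irf2, and the largest fall was 111 kb downstream of Irf2 (59.5 ± 9.99 and 16.9 ± 8.48 tags, log2 change -1.84). The peptide transporter genes Tap1 and Tap2 and the immunoproteasome genes Psmb8 and Psmb9 had no called peak by limma as deposited, and Tap1 summed to 46.2 ± 7.26 and 44.7 ± 10.5 tags. Beside these, the dendritic marker Itgax had a promoter level of 23.8 ± 3.91 and 46.4 ± 15.1 tags and the microglial marker Siglech 131 ± 22.1 and 58.0 ± 23.9 tags.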

How the data were processed

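ATAC-seq libraries of cortical microglia from 8 mice were compared, 4 per group, and the labels give every library its own mouse number. Per the file headers, the authors deposited a signal, made by counting tags per peak with HOMER over a merged list of reproducible peaks and scaling each library to 10000000 tags, at most 3 tags being kept per position. The deposited peak score of the authors was not used in any test. Bowtie2, HOMER, DESeq2, mm10 and GRCm38 are named in the submitters' processing notes, with no version of a tool. For trimming, multi-mapping reads, duplicates and the transposase shift, the steps taken are not given in the sources used here. Columns named the treatment but not the mouse, so no sex term was fitted, and 0 further sample columns were left unused. The values gave whole reads at 100% of cells within 0.006 tags.

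Peaks were tested in limma 3.58.1 (R 4.3.3, without trend) as log2(tags + 1.155), a pseudocount of 10% of the median over peak means, without the lowest 10% of means. Sums per gene over all, promoter-TSS or distal peaks were tested as log2(sum + 5). p-values were adjusted over all peaks or genes tested, threshold 0.05. Because of the pseudocount, log2 changes understate the change at weak peaks, while folds are plain ratios of the group means without it. On the values as deposited, limma gave every peak a common spread, with an SE of 0.34, and did so for each kind of sum. The p-values of these tests rest on the spread between mice pooled over all peaks or sums. They do not use the spread at the single peak or sum. The tests were tried on simulated data whose libraries did not differ in their share of tags in peaks. That trial therefore cannot show how the tests behave on libraries with unlike shares, as here. Every pair of libraries in a group differed beyond sampling noise, with a chi-square of at least 3.73 per degree of freedom. The alternatives were other pseudocounts (0.5 and 5 for peaks, 1 and 20 for sums), no filter, 3 scalings, limma with trend, edgeR 4.0.16 on the recovered reads with TMM or total tags, a distance limit of 50 kb and leaving out each library.

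Members and lists were chosen with earlier results of these data known. Member peaks were named where past the threshold, as promoters, or as the most changed distal peak of a fixed set of genes that included the classical chains and the partners. The motifs, and the other genes and weak peaks named, were chosen after their values were seen.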

Additional observations from a re-analysis of the deposited data

Results flagged for a closer look

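In 8 of 208 groups of 4 libraries, 1 library stood apart from the rest of its group in a gene's summed tags, and chance flags about 5% of such groups. Of the class II genes only H2-Ob was among them, where vehicle library 3 had 105.01 tags over all peaks against 151 to 157 in the others and 95.66 tags over distal peaks against 137 to 142. Vehicle library 3 was also apart at the distal H2-M3 peak with 21.66 tags (31.6 to 33.5), at the H2-Q5 promoter with 8.55 tags (12.4 to 13) and at the H2-T-ps promoter with 25.99 tags (39.9 to 42.1). IL-33 library 2 was apart at H2-Q7, with 61.77 tags over all peaks (95.3 to 101) and 53.64 tags at the promoter (87.3 to 93.0). The single distal H2-M10.5 peak had 16.18 tags in vehicle library 4 and 5.68 to 7.16 in the others. Vehicle library 3 and IL-33 library 2 had the lowest shares of tags in peaks of their groups, 20.8% and 14.2%, and the part of this in the values was not tested.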

How the results depend on the processing

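Member peaks raised numbered 9 as reported, 17 after median-ratio scaling, 17 with equal column sums, 15 after quantile normalization and 18 in edgeR with TMM. Counts over all peaks moved too. At an unadjusted p under 0.05 they were 22061 as reported and 35525, 35253, 36009 and 36051 under those settings in that order. Where no share over all peaks or genes is given above, the counts in this section are not a result about the members. Leaving out 1 library gave 6 to 14, with 6 without IL-33 library 1, 3 or 4 and 14 without IL-33 library 2. Peaks lowered numbered 2 as reported, 1 with the low or the high pseudocount, with trend or in edgeR with total tags, 4 with equal column sums or median-ratio scaling, 6 after quantile normalization and 8 in edgeR with TMM. Leaving out 1 library gave 0 to 4, with 0 without vehicle library 1, 2 or 4 or IL-33 library 3 and 4 without IL-33 library 4. Over all peaks of a gene 0 rose and 0 fell as reported. Raised and lowered were 7 and 4 with equal column sums, 7 and 4 after median-ratio scaling, 3 and 5 after quantile normalization and 6 and 4 in edgeR with TMM. Without IL-33 library 2, 1 rose (H2-Ea-ps), and without any other library 0 did. Of promoter sums 1 rose as reported, 4 with either median-ratio scaling or equal column sums, 2 after quantile normalization, 5 in edgeR with TMM, and 1 to 2 with a library left out, Ciita joining Cd74 without IL-33 library 2. Promoter sums lowered were 0 as reported, 3 with equal column sums, 3 after median-ratio scaling and 1 after quantile normalization. Distal sums raised were 0 as reported, 6, 6, 3 and 5 under those scalings in the same order with edgeR last, and 0 to 2 with a library left out, 2 (H2-Ab1 and H2-Ea-ps) without IL-33 library 2. Distal sums lowered were 0 as reported, 3 after median-ratio scaling, 2 with equal column sums, 5 after quantile normalization and 2 in edgeR with TMM. Over all genes, sums over all peaks at an unadjusted p under 0.05 numbered 1622 as reported and 5940 to 6471 under those scalings. For promoter sums the numbers were 711 and 2380 to 3662, and for distal sums 2201 and 6164 to 6421. The cause was not tested.

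The raised peaks of Cd74, Ciita, H2-Eb1 and B2m and the H2-Ea-ps peak 3493 bp upstream passed under every alternative in which they were tested. That was 15 of 17 for B2m and Ciita and 13 for the Cd74 peak 1835 bp upstream. The B2m peak fell under the filter without IL-33 library 3 or 4, the Ciita peak without IL-33 library 2 or 4 and that Cd74 peak without any 1 IL-33 library. The 5 raised peaks with a vehicle mean under the filter's 4.30 tags all belong to this set. With the filter on, these 5 had to differ to be tested, so passing wherever tested is weak support for them. Class I peaks raised, with partners, numbered 1 as reported, 4 after median-ratio scaling, with equal column sums or in edgeR with TMM, and 0 without IL-33 library 3. Sums of single genes were followed for a fixed set only, which included the classical chains and the partners. Of its 708 values under an alternative, 673 stayed on their side of the threshold, 35 newly passed it and none changed direction past it. That set left out H2-Ea-ps, H2-Ob, H2-M5, H2-T22, H2-DMb1, H2-Q5 and H2-Q8, whose sums over all peaks passed after median-ratio scaling. No paired analysis was possible because the labels number the mice 1 to 4 and 5 to 8, and the numbers 1 to 4 of the columns name no mouse. At this depth 3 reads are worth 0.342 to 0.418 tags, and floors cover counting error only.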
